A study of Bos taurus with 8 samples.

Results

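The signals of collagen genes were compared between stem-like cells derived from bovine embryos (eSLCs) and bovine SCs, which are somatic cells. The genes were all those whose current RefSeq symbol is COL, digits, A, digits, which are the genes of the collagen chains, and 12 genes for enzymes and a chaperone that act on collagen (P4HA1, P4HA2, P4HB, PLOD1, PLOD2, PLOD3, LOX, LOXL1, LOXL2, SERPINH1, PCOLCE and BMP1). The RefSeq table of cattle genes listed 44 chain genes, so that 56 genes were sought. A probe on the microarray could be named for 31 of them, of the 12602 genes named in all. They were 21 chain genes and 10 processing genes, with 107 probes together. Of these 31 genes, 29 were tested (19 chains and all 10 processing genes), of 10957 genes tested in the series. The chains COL4A3 and COL26A1 were not well above background by any probe on any array and were not tested. No probe was named here for BMP1 and P4HB, nor for 23 chains (COL4A2, COL4A4, COL4A5, COL4A6, COL5A1, COL5A2, COL6A3, COL6A5, COL6A6, COL7A1, COL9A1, COL9A2, COL9A3, COL14A1, COL16A1, COL19A1, COL20A1, COL21A1, COL22A1, COL23A1, COL24A1, COL25A1 and COL28A1), which were not analysed here.

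Collagens are extracellular proteins in which chains wind around each other as a triple helix. Fibrillar collagens form the banded fibrils of skin, tendon, bone and cartilage, type IV collagen forms the sheet of basement membranes under epithelia, type VI collagen forms beaded filaments around cells, and other types lie on the surface of fibrils or in the cell membrane. Within the cell, prolyl 4-hydroxylases and lysyl hydroxylases modify the chains, and the chaperone encoded by SERPINH1 holds the folded helix on its way out. Outside the cell the propeptides of fibrillar collagens are cut off, and lysyl oxidases start the cross-links between molecules. Fibroblasts are the main source of fibrillar collagen in skin, while in the blastocyst the epithelial layers and the hypoblast lay down basement membrane.

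Total RNA of 8 cell samples of HanWoo cattle was hybridized to Agilent bovine oligo microarrays with the dye Cy3, 1 sample per array. The eSLCs grew as colonies from blastocysts made by in vitro production (IVP), somatic cell nuclear transfer (NT) or parthenogenesis (PA). They were I2 at passage 35 and I9 at passage 30 (IVP-eSLCs), N2 at passage 36 and N7 at passage 30 (NT-eSLCs), and P1 at passage 31 and P4 at passage 36 (PA-eSLCs). All of them were kept on inactivated mouse STO feeder cells in 3i medium, which holds the inhibitors PD184352, SU5402 and CHIR99021, and each line stands for 1 colony. SCs were bovine somatic cells grown in DMEM with 10% FBS, at passages 5 and 10, called SC P5 and SC P10 here. The labels do not name their tissue. The methods name ear skin as the source of the NT donor cells. Culture medium, passage number and cell type therefore differed together between eSLCs and SCs, and they cannot be told apart in these data. The mouse feeder layer is described for eSLCs only, and any part of feeder RNA in their signals was not tested. Whether the SC passages came from separate cultures is not given in the sources used here, so that p-values measure the spread between these samples, which may be technical.

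Signals are given as normalized signal, which is the background-subtracted intensity of a probe scaled so that the 75th percentile of each array is 1000. Values under 13.3 were raised to that floor, and a gene was read from the probe with the highest mean. Sums over marker genes used the signals before the floor, with negative values left out. Between 71.2% and 76.7% of spots were well above background. Signals of different probes depend on the probe and were not set against each other. The log2 difference is the mean of the 3 eSLC origins minus SCs, with the standard error (SE) of a limma fit, and a gene was called where it differed by at least 2-fold with an adjusted p (Benjamini-Hochberg, over all genes tested) under 0.05. Over all genes tested the median log2 difference was 0.23 (0.12 after quantile normalization), so that the array as a whole was slightly higher in eSLCs. Slide 1 held I2, I9, N7 and SC P5, and slide 2 held SC P10, N2, P1 and P4.

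The labels were set against marker genes. Fibroblast markers that are not collagens had a summed normalized signal of 480336 to 539997 in SCs and 3088 to 7218 in eSLCs, and 11 of 12 were called lower in eSLCs. FBN1, which encodes the microfibril protein fibrillin, was not well above background in eSLCs, and DCN and LUM of this list are also fibril-associated genes described further on. Markers of trophectoderm and epithelium summed to 521671 to 1.22e+06 in eSLCs and to 17936 to 17979 in SCs. Of the 14 with a named probe, 13 were called higher in eSLCs. CDX2, ELF5, CDH1 and ASCL2 were not well above background in SCs, and CLDN6 was so in only 1 SC array. These were tested only through eSLCs, and FBN1 only through SCs, so that they had to differ and their calls add nothing to the counts. The shares over all genes tested were 15.7% lower and 19.7% higher. Of 7 markers of pluripotent embryo cells with a named probe, 3 were called higher in eSLCs and 1 lower. NANOG, LIN28A and DPPA4 were likewise tested only through eSLCs, and ACAN of the cartilage and bone markers only through SCs. Smooth muscle markers summed to 2975 to 24789 in eSLCs and 254424 to 362377 in SCs (3 of 5 called lower, 1 higher), keratinocyte markers to 1447 to 3513 and 3032 to 6343, ranges that overlap, and markers of cartilage and bone to 2088 to 3296 and 2631 to 3232 (2 of 3 tested called lower). The collagen signals described here differ between the same cells as the fibroblast and trophectoderm lists do, and the part of cell type in them was not tested. In such bulk RNA, fewer cells of a type and less RNA per cell cannot be told apart.

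Of the 29 collagen genes tested, 19 were called lower in eSLCs than in SCs and 1 higher. Of the 19 chains tested, 11 were called lower, 1 higher and 7 not called, with a median log2 difference of -2.30. Of the 10 processing genes, 8 were called lower, 0 higher and 2 not called, with a median of -4.52. At an unadjusted p under 0.05, 12 chains and 8 processing genes differed by limma, and none of the latter was higher in eSLCs, while over all genes tested 54.9% differed at that threshold. Over all genes tested, 15.7% were called lower and 19.7% higher. COL13A1 and COL11A2 were tested only because they were well above background in the group where they were higher (SCs for the former, eSLCs for the latter), so that they had to differ and their calls add nothing to the counts. Of the 17 chains well above background on all arrays, 10 were called lower and 0 higher by limma, with a median log2 difference of -2.38 and 10 at an unadjusted p under 0.05, against 14.1% lower and 18.9% higher over the 9363 genes of that kind. All 10 processing genes were well above background on all arrays. For 19 of the 29 genes every eSLC array lay below both SC arrays, and for 1 every eSLC array lay above them, while over all genes these shares were 23.6% and 34%. Each of the 20 genes called had the same direction within slide 1 and within slide 2. This had to be so, since their eSLC and SC arrays did not overlap, and it adds no support.

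**Figure D1:**
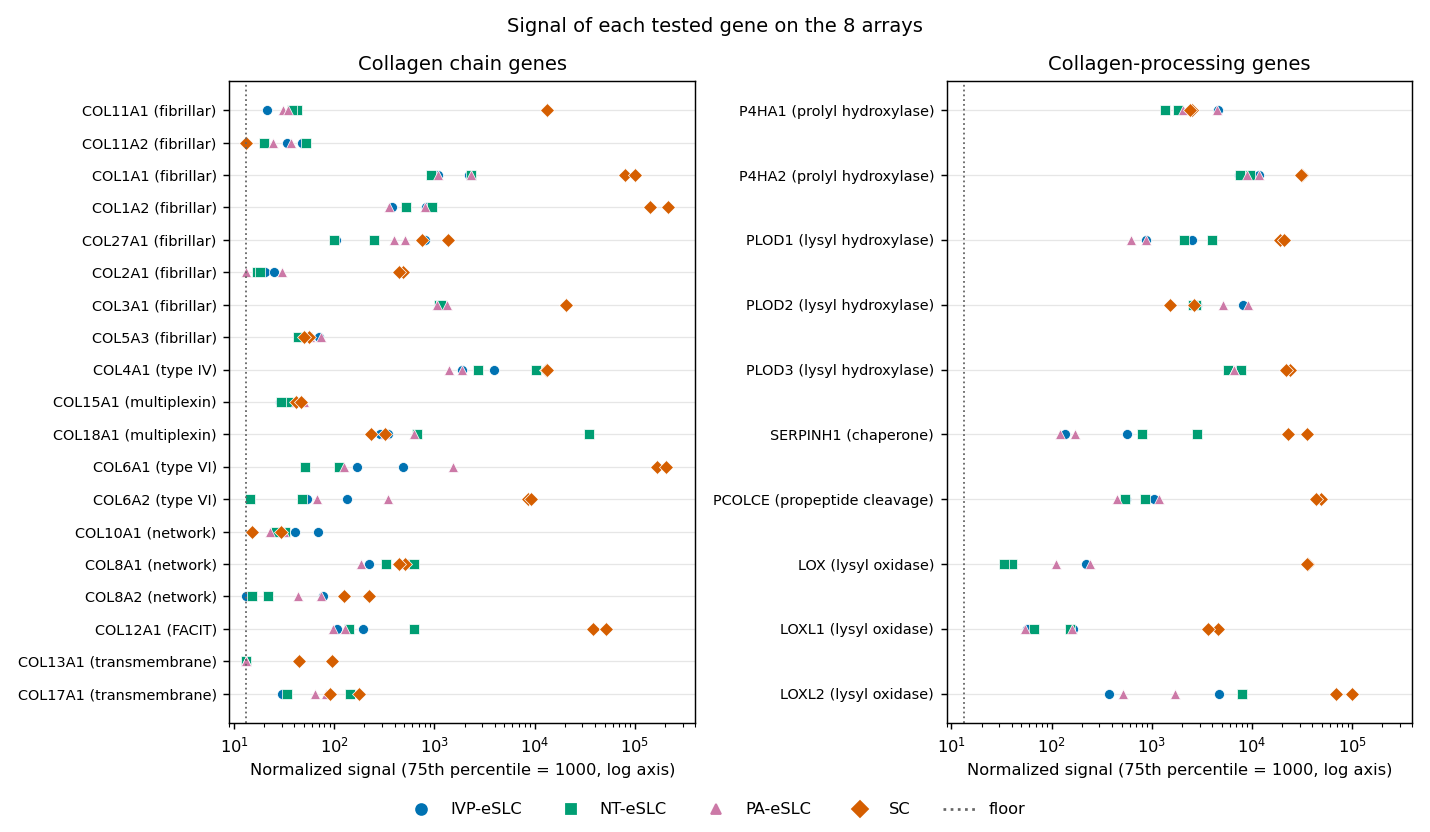
Normalized signal (log axis, 75th percentile of each array at 1000) of the 19 chain genes and 10 processing genes tested, 1 point per array, with the floor of 13.3 dotted. SC arrays lie to the right of all 6 eSLC arrays for 19 genes, among them COL1A1, COL1A2, COL3A1, COL6A1 and LOX, and signals are to be compared within a gene only.

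Of the 11 fibrillar chains sought, 8 were tested, of which 5 were called lower, 1 higher and 2 not called. COL1A1 and COL1A2 encode the chains of type I collagen, the main collagen of skin and bone. COL1A1 was at 1089 in I2, 2197 in I9, 2295 in N2, 919 in N7, 1086 in P1 and 2342 in P4, with SC P5 at 80068 and SC P10 at 99667. COL1A2 was at 375, 827, 947, 517, 351 and 801 in the same lines, against 140326 and 213917 in SCs. By these probes the groups did not overlap for either chain. The log2 difference was -5.87 (SE 0.50, 58.4-fold lower, limma adjusted p = 0.000338) for COL1A1 and -8.19 (SE 0.48, 293-fold lower, limma adjusted p = 8.17e-05) for COL1A2. The size rested on the probe read, since the 5 probes of COL1A1 ran from -2.51 to -7.77 and the 6 probes of COL1A2 from -5.58 to -12.31, with the same direction in each.

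COL3A1 encodes type III collagen, which accompanies type I in skin and vessel walls. By the brightest probe it was at 1211 in I2, 1207 in I9, 1115 in N2, 1151 in N7, 1343 in P1 and 1060 in P4, with SC P5 at 20690 and SC P10 at 20417. The lines were almost level with each other (SD 0.12 on the log2 scale, n = 6), and the log2 difference was -4.13 (SE 0.15, 17.5-fold lower, limma adjusted p = 1.62e-05). The other 9 probes of COL3A1 gave another picture in eSLCs. They lay between the floor and 50.6 in the 6 lines and between 13936 and 127840 in SCs, with log2 differences of -10.29 to -12.58. On 4 of these 9 probes every eSLC array was at the floor. The direction was shared by all 10 probes, while the size rested on which probe was read, and it was -10.76 with the mean of the probes.

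COL2A1 and COL11A1 are chains of cartilage collagens, and type XI collagen also takes part in fibrils elsewhere. COL11A1 was at 21.5 in I2, 38.3 in I9, 42.4 in N2, 38.2 in N7, 31.0 in P1 and 34.5 in P4, against SC P5 at 13191 and SC P10 at 13396. All 6 lines were close to the floor, and the log2 difference was -8.63 (SE 0.24, limma adjusted p = 6.86e-06). Its 8 probes ran from -5.04 to -10.25. COL2A1 was at 20.5 in I2, 25.1 in I9, 16.9 in N2, 18.3 in N7, 30.1 in P1 and at the floor in P4, against SC P5 at 481 and SC P10 at 448. The log2 difference was -4.54 (SE 0.32, limma adjusted p = 0.000166). COL2A1 was the one gene here whose probes were 2-fold or more apart in opposite directions. A second probe lay between 43.5 and 61.3 in eSLCs and at the floor in SCs (2.00 on the log2 scale), another gave 0.87, and with the mean of its probes the log2 difference was -0.42 and was not called.

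The fibrillar chain COL11A2 was the only chain called higher in eSLCs, through the filter described above. It was at 33.5 in I2, 47.6 in I9, 52.4 in N2, 19.9 in N7, 24.4 in P1 and 36.8 in P4, and was not well above background in either SC array. The difference of 1.35 (SE 0.40, limma adjusted p = 0.0355) stands for at least 4.07-fold, set against the lowest signal well above background on each SC array. These signals were close to the floor, the other probe of COL11A2 gave 0.03, and the call was lost under 13 of 23 other settings. Without single arrays it was lost for either SC array and for I2, I9, P1 or P4, where the log2 difference was 1.25 to 1.45.

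The remaining fibrillar chains tested were not called. COL27A1, a chain of growing cartilage, was at 802 in I2, 103 in I9, 100.1 in N2, 249 in N7, 506 in P1 and 394 in P4, with SC P5 at 1369 and SC P10 at 746. I2 reached the SC arrays and the other lines lay below them, so that the groups overlapped (log2 difference -1.89, SE 0.81, limma adjusted p = 0.103), and without I2 the difference of -2.38 was called. COL5A3, a minor chain of type V collagen, was at 69.9 in I2, 45.8 in I9, 53.9 in N2, 43.4 in N7, 73.7 in P1 and 57.0 in P4, with SC P5 at 55.7 and SC P10 at 50.5. Its log2 difference of 0.08 (SE 0.23, limma adjusted p = 0.785) changed sign under 5 of 24 other settings.

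**Figure D2:**
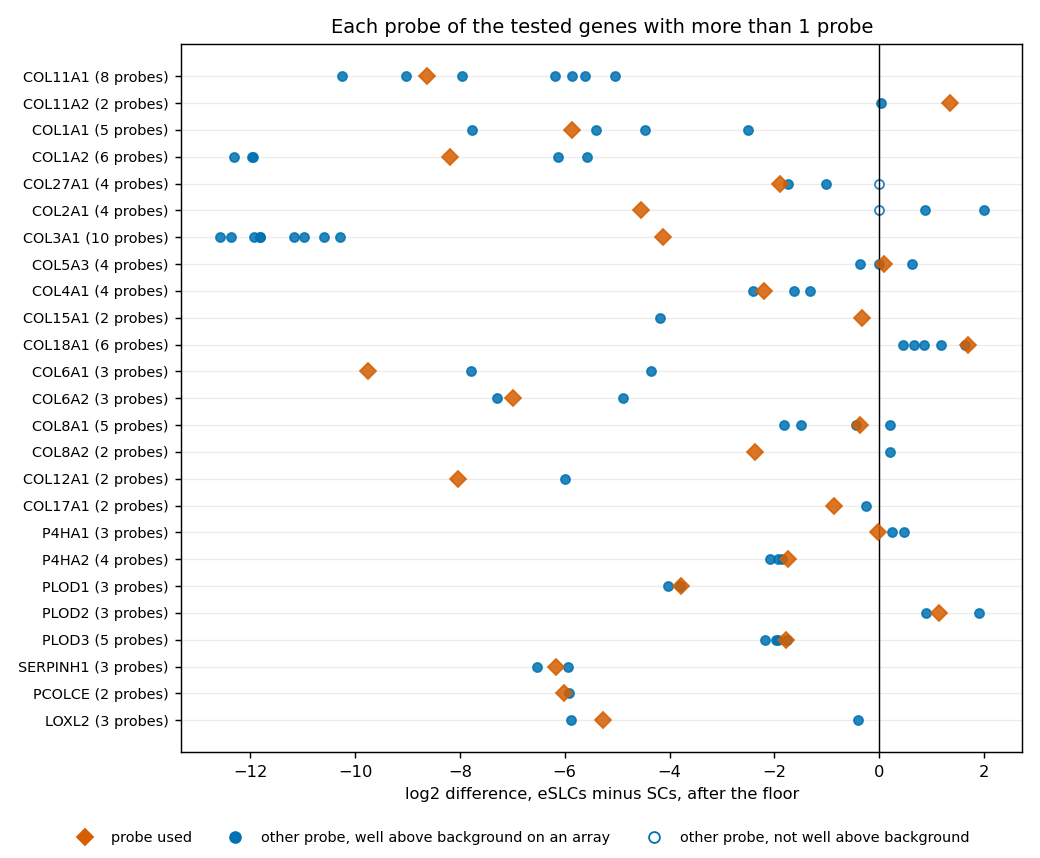
Log2 difference between eSLCs and SCs (x axis) for each probe of the 25 tested genes with more than 1 probe (rows); the diamond is the probe used, open circles were not well above background on any array. The probes of PLOD1, PLOD3, P4HA2, SERPINH1 and PCOLCE lie close together, while the 9 other probes of COL3A1 lie left of the one used and those of COL2A1 fall on both sides of 0.

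Type IV collagen is the network-forming collagen of basement membranes. COL4A1 was its one chain tested. COL4A1 was at 1872 in I2, 3960 in I9, 2718 in N2, 10248 in N7, 1389 in P1 and 1878 in P4, with SC P5 at 12914 and SC P10 at 13336. N7 lay just under the SC arrays and the other 5 lines well under them. The log2 difference was -2.20 (SE 0.55, 4.60-fold lower, limma adjusted p = 0.0198), and the 4 probes ran from -1.32 to -2.42. The call was not stable, since it was lost without I2 (-2.02), P1 (-2.13), P4 (-2.27), SC P5 (-2.22) or SC P10 (-2.18), with the same direction in each. The log2 difference of COL4A1 was -1.61 within slide 1, which held N7, and -2.80 within slide 2.

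COL18A1 and COL15A1 encode multiplexins, collagens of the basement membrane zone that carry sugar chains, and neither was called. COL18A1 was at 348 in I2, 289 in I9, 674 in N2, 35285 in N7, 633 in P1 and 318 in P4, with SC P5 at 321 and SC P10 at 233. N7 stood apart from the other 5 lines and from SCs, and the difference from SCs was 1.69 (SE 1.38, limma adjusted p = 0.351) with N7 and 0.74 without it. Without N2 the NT value rested on N7 alone, and the difference of 2.65 was called. COL15A1 lay between 28.9 and 49.97 in eSLCs and at 41.9 and 46.3 in SCs by the probe used (log2 difference -0.33, SE 0.16, limma adjusted p = 0.135). Its other probe was at the floor in 5 lines and at 13.9 in the other, against 244 and 245 in SCs, and the mean of both probes was called lower at -2.26.

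The type VI chains, whose filaments anchor cells in connective tissue, were both called lower, and by the probes used COL6A1 had the largest difference of the 29 genes. COL6A1 was at 485 in I2, 170 in I9, 112 in N2, 50.7 in N7, 1549 in P1 and 125 in P4, with SC P5 at 166370 and SC P10 at 203502 (log2 difference -9.76, SE 0.98, 868-fold lower, limma adjusted p = 0.000657). COL6A2 was at 135, 53.9, 47.2, 14.3, 341 and 66.8 in the same lines, against 8536 and 9145 in SCs (log2 difference -6.99, SE 0.77, limma adjusted p = 0.000927). By the probes used, both chains were highest in P1 and lowest in N7, and their groups did not overlap. COL6A1 was also measured by a probe with a difference of -4.35, so that the size depended on the probe here too. On that probe N7 was the highest line at 474, with P1 at 398, so that the order of lines depended on the probe as well.

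COL12A1 encodes a collagen that binds to the surface of type I fibrils. It was at 194 in I2, 106 in I9, 140 in N2, 624.7 in N7, 96.6 in P1 and 128 in P4, with SC P5 at 38058 and SC P10 at 51238. All lines lay far below SCs, N7 less so than the others, and the log2 difference was -8.04 (SE 0.58, limma adjusted p = 0.00019). COL13A1, a collagen of the cell membrane, was not well above background in any of the 6 lines and was at 95.3 in SC P5 and 44.9 in SC P10, which was at least 6.68-fold higher in SCs (limma adjusted p = 0.00156, with the limit given above that it was tested only through SCs). COL17A1, the other membrane collagen and a part of the anchorage of epithelial cells, lay between 30.3 and 147 in eSLCs and at 175 and 91.3 in SCs. The groups of COL17A1 overlapped and it was not called (log2 difference -0.86, SE 0.78, limma adjusted p = 0.399).

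Among the network collagens of types VIII and X, 1 of 3 was called. COL8A2 was at 77.2 in I2, at the floor in I9, and at 15.0 in N2, 21.9 in N7, 43.2 in P1 and 74.4 in P4, with SC P5 at 222 and SC P10 at 125. Every line was below SCs, at -2.38 on the log2 scale (SE 0.68, limma adjusted p = 0.0323), but the call was lost under 12 of 24 other settings. Under 2 more, the processed signal and the series matrix, the sign turned and COL8A2 was called higher in eSLCs. Leaving out N2, N7, P1, P4, SC P5 or SC P10 ended the call of COL8A2 as lower, with differences of -1.96 to -2.79. COL8A1, from the same type VIII collagen, lay between 184 and 626 in eSLCs and at 504 and 439 in SCs, and COL10A1, known from hypertrophic cartilage, between 23.1 and 69.4 and at 29.1 and 15.0. Neither was called against the 3 origins together (limma adjusted p = 0.585 and 0.132). These values of COL8A1 are by the probe used, and its 4 other probes had log2 differences of -1.81 to 0.20. On the probe at -1.81 every line was at the floor, against 56.2 and 38.6 in SCs.

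**Figure D3:**
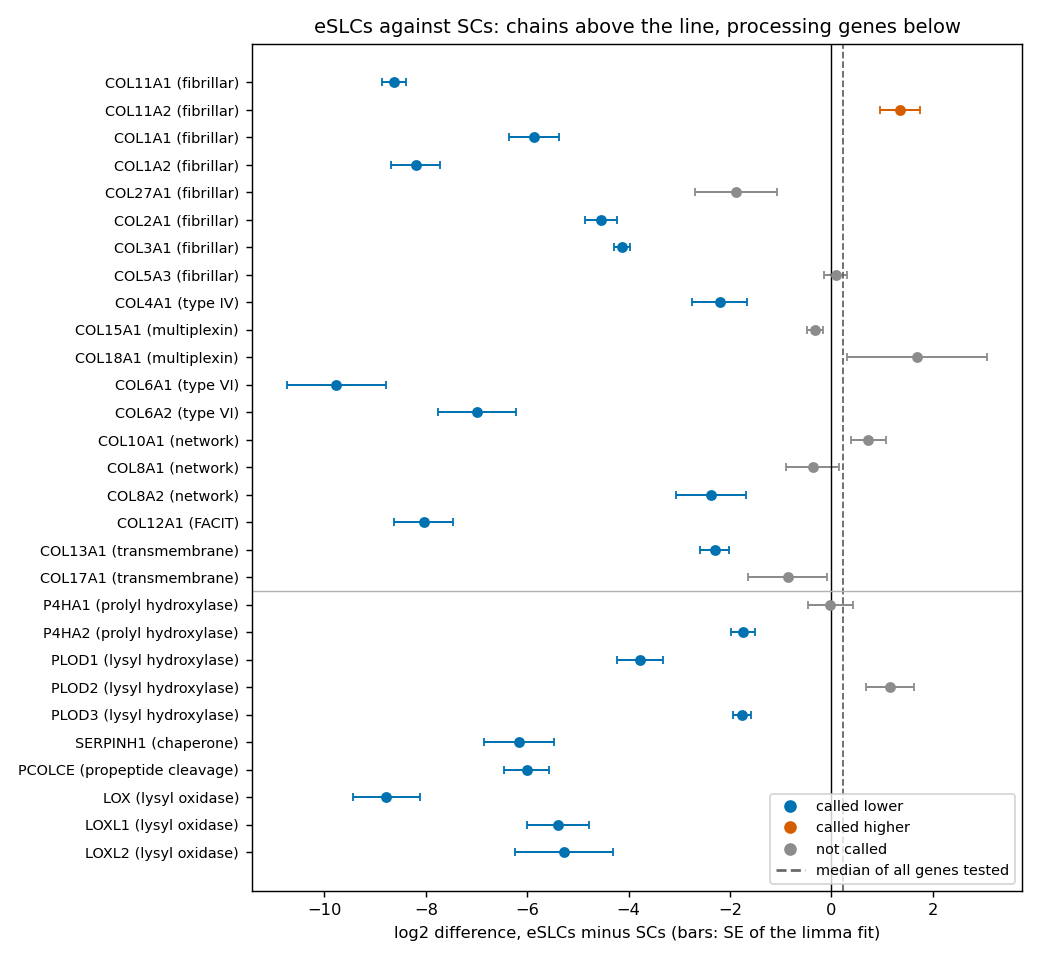
Log2 difference between eSLCs and SCs (x axis) of the 29 genes tested, by class, with bars for the SE of the limma fit and a dashed line at the median of all genes tested, 0.23. Called genes reach from -1.75 for P4HA2 to -9.76 for COL6A1 on the lower side, and COL11A2 at 1.35 is the one called higher.

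The processing genes tested fell into 6 that act within the cell and 4 that act outside it. Of those within, 4 were called lower and 2 (P4HA1 and PLOD2) were not called. All 4 of those outside (PCOLCE, LOX, LOXL1 and LOXL2) were called lower.

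Prolyl 4-hydroxylases make the hydroxyproline that keeps the triple helix stable. P4HA1 was at 4601 in I2, 1900 in I9, 1841 in N2, 1350 in N7, 4527 in P1 and 2045 in P4, with SC P5 at 2498 and SC P10 at 2408. I2 and P1 lay above SCs and the other 4 lines below, and the log2 difference was -0.02 (SE 0.44, limma adjusted p = 0.977), with a sign that turned under 8 of 24 other settings. P4HA2 was at 11751 in I2, 7376 in I9, 7610 in N2, 9487 in N7, 11821 in P1 and 8850 in P4, with SC P5 at 31860 and SC P10 at 30733. It was lower in every line, by 3.36-fold (log2 difference -1.75, SE 0.24, limma adjusted p = 0.00225).

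Lysyl hydroxylases prepare the lysines that carry cross-links and sugars. PLOD1 was at 882 in I2, 2509 in I9, 3951 in N2, 2109 in N7, 617 in P1 and 867 in P4, with SC P5 at 19223 and SC P10 at 20872 (log2 difference -3.77, SE 0.45, limma adjusted p = 0.00131). PLOD3, which also adds sugars, was at 6132, 7275, 7799, 5754, 6579 and 6667 in the same order, against 23843 and 21682, and its lines were close together (log2 difference -1.77, SE 0.18, limma adjusted p = 0.00069). PLOD2, which acts on the lysines at the ends of the chains, had the opposite sign but did not pass the test. PLOD2 was at 8220 in I2, 2815 in I9, 2796 in N2, 2561 in N7, 9121 in P1 and 5154 in P4, with SC P5 at 1516 and SC P10 at 2659. The 3 probes of PLOD2 had differences of 0.89 to 1.90, but N7 lay under SC P10, and the difference of 1.15 (SE 0.48) was not called (limma adjusted p = 0.0949). Without I9 it was called, at 1.41.

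SERPINH1 encodes the collagen chaperone of the endoplasmic reticulum. It was at 137 in I2, 564 in I9, 799 in N2, 2854 in N7, 122 in P1 and 170 in P4, with SC P5 at 22749 and SC P10 at 35101. The lines spread over 23.3-fold and all lay below SCs, at -6.17 on the log2 scale (SE 0.69, 71.95-fold lower, limma adjusted p = 0.000984). PCOLCE encodes a secreted protein that speeds up the removal of the C-propeptide by the protease of BMP1. PCOLCE was at 560 in I2, 1042 in I9, 859 in N2, 542 in N7, 1168 in P1 and 452 in P4, with SC P5 at 49381 and SC P10 at 43977 (log2 difference -6.01, SE 0.44, 64.4-fold lower, limma adjusted p = 0.000194).

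All 3 lysyl oxidases were called lower. LOX was at 218 in I2, 39.2 in I9, 40.3 in N2, 33.3 in N7, 242 in P1 and 110.0 in P4, with SC P5 at 36295 and SC P10 at 35707 (log2 difference -8.78, SE 0.66, 439-fold lower, limma adjusted p = 0.000217). LOXL1 was at 56.7, 165, 153, 67.0, 54.3 and 160 in the same lines, against 4572 and 3610 (log2 difference -5.39, SE 0.61, limma adjusted p = 0.00104). LOXL2, which cross-links type IV collagen, was at 373 in I2, 4662 in I9, 8002 in N2, 7927 in N7, 514 in P1 and 1722 in P4, with SC P5 at 69169 and SC P10 at 99215. LOXL2 varied more among the lines than the other lysyl oxidases did (SD 1.96 on the log2 scale, n = 6), and its difference was -5.27 (SE 0.97, limma adjusted p = 0.00672). The call of LOXL2 was lost without SC P5 (-5.53) or without SC P10 (-5.01), and 1 of its 3 probes gave -0.41.

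The study set eSLCs of each origin against SCs, and these comparisons share the SC arrays. Of the 29 genes, 18 were called lower and 2 higher in IVP-eSLCs, 17 lower and 0 higher in NT-eSLCs, and 18 lower and 0 higher in PA-eSLCs. Over all genes, 14.6% were called lower and 17.7% higher in IVP-eSLCs, 13.9% and 15.8% in NT-eSLCs, and 14.9% and 20.3% in PA-eSLCs. At an unadjusted p under 0.05, 22, 21 and 19 of the 29 genes differed by limma, in either direction, against 48.1%, 45.6% and 51% of all genes. The chains higher in IVP-eSLCs were COL11A2 (1.59, limma adjusted p = 0.048) and COL10A1 (1.35, limma adjusted p = 0.0495). Of the 19 genes lower over all eSLCs, COL4A1 (-1.31, limma adjusted p = 0.18) and LOXL2 (-3.38, limma adjusted p = 0.0748) were not called in NT-eSLCs, and COL8A2 was not called in IVP- and PA-eSLCs (-2.38 and -1.55, limma adjusted p = 0.0698 and 0.185). COL1A1 differed from SCs by -5.85 in IVP-eSLCs, -5.94 in NT-eSLCs and -5.81 in PA-eSLCs, and PCOLCE by -5.93, -6.09 and -6.00.

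Between origins no collagen gene was called, and nor was any other gene. The shares called by limma were 0% for NT- against IVP-eSLCs, 0% for PA- against IVP-eSLCs and 0% for PA- against NT-eSLCs. At an unadjusted p under 0.05, 1 of the 29 genes differed between NT- and IVP-eSLCs (SERPINH1, 2.44 higher on the log2 scale in NT), 1 between PA- and IVP-eSLCs (COL15A1, 0.63 higher in PA) and 7 between PA- and NT-eSLCs. Over all 10957 genes, 306, 568 and 1091 did. The 7 were SERPINH1 (-3.39), LOXL2 (-3.08), PLOD1 (-1.98) and COL4A1 (-1.71), lower in PA-eSLCs, and COL6A2 (2.54), LOX (2.15) and COL15A1 (0.51), higher in PA-eSLCs, and their limma adjusted p was 0.502 throughout. Slide 1 held both IVP arrays and slide 2 both PA arrays, while NT-eSLCs and SCs had an array on each, and with the slide as a block 0 of the 29 genes were called by limma for any pair of origins.

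Signals also varied among the 6 eSLC lines. The SD of log2 signals over the lines had a median of 0.74 over the 29 genes (0.64 for chains, 0.81 for processing genes) and of 0.35 over all genes tested, given without a test. The orders of lines described here were picked after the values were seen and carry no test. They are by the probe used for each gene, and other probes of a gene did not always share them. COL1A1, COL1A2, COL8A1, COL11A2, LOXL1 and PLOD3 were each higher in I9, N2 and P4 than in I2, N7 and P1, lines that cross origins, slides and passages, an order that 6.38% of all genes tested had. By the probe used for COL1A2, the former lay between 801 and 947 and the latter between 351 and 517. On another probe of COL1A2, N7 was highest at 88.8, with P4 at 33.5. The other probes of COL1A1 kept the order. Of the 12 fibroblast markers, 3 had this order (VIM, PRRX1 and S100A4) and 9 did not. Among the latter, LUM, PDGFRA and TWIST1 were highest in N7, and FAP was higher in I2 and P1 than in N2 and P4. The part of this list in the collagen values was not tested. By the probes used, P1 and I2 were the highest lines for 9 of the 29 genes (COL3A1, COL5A3, COL6A1, COL6A2, COL27A1, LOX, P4HA1, P4HA2 and PLOD2), as for 11.2% of all genes tested. On another probe of COL3A1, N2 (50.6) and I9 (34.8) were highest, with I2 and P1 at the floor.

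By the probes used, N7 was the highest line for 4 genes (COL18A1, COL4A1, SERPINH1 and COL12A1) and the lowest for 9 (COL1A1, COL5A3, COL6A1, COL6A2, COL11A2, LOX, P4HA1, PLOD2 and PLOD3). Over all genes tested it was highest for 20.3% and lowest for 26.6%, so that these counts were near the background. COL18A1 was at 35285 in N7 against 289 to 674 in the other lines, and 4 of its 5 other probes were also highest in N7, with up to 7636. The remaining probe of COL18A1 lay between 216 and 394 over the 6 lines and was highest in P1. Markers of hypoblast and endoderm summed to 128664 in N7, 3679 to 8930 in the other lines and 15355 to 17582 in SCs. This rested on 4 of the 7 markers with a named probe, APOA1 (112600 in N7, 1097 to 6823 in the other lines), HNF4A (9022 against the floor to 23.4), GATA4 (2918 against 23.1 to 180) and PDGFRA (1422 against 42.6 to 276), the last of which the fibroblast list also holds. The remaining markers were not higher in N7. AFP (15.9 in N7, 20.1 to 26.7 in the other lines) and TTR (22.2 against 22.7 to 33.2) were lowest in N7. SOX17 was at 2664 in N7 and at 1908 to 2946 in the other lines. The hypoblast is the layer of the blastocyst that lines the yolk sac and makes basement membrane. The part of this marker list in the collagen values of N7 was not tested. Without N7 the counts were 10 chains and 8 processing genes called lower, with COL8A2 lost.

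**Figure D4:**
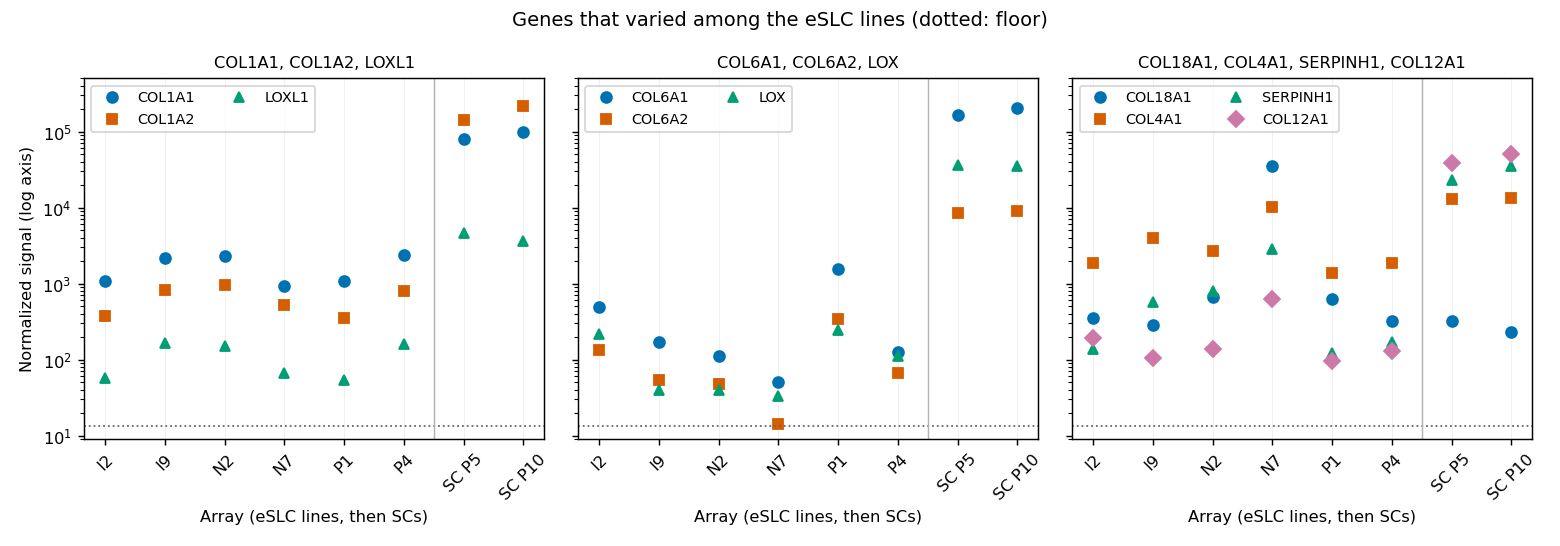
Normalized signal (log axis) on each array for genes that varied among the eSLC lines, with the floor dotted. By the probes used, COL1A1, COL1A2 and LOXL1 are higher in I9, N2 and P4, and COL6A1, COL6A2 and LOX are highest in P1 and I2. COL18A1, COL4A1, SERPINH1 and COL12A1 are highest in N7. Other probes of COL1A2 and COL6A1 did not share these orders.

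Other genes of the collagen pathway were taken from lists by role, which carry no test of their own. A gene at the floor in all or nearly all eSLC lines could hardly be called higher, so that its call as lower adds little to the counts. How many genes of these lists passed the filter through SCs only is not given here. The shares over all genes tested were 15.7% lower, 19.7% higher and 54.9% at an unadjusted p under 0.05 by limma. Of 11 other genes for modification and folding tested, 8 were called lower and 1 higher. FKBP10, a folding enzyme of collagen, lay between 249 and 456 in eSLCs against 18258 and 18810 in SCs (-5.85, SE 0.25). P3H1, a prolyl 3-hydroxylase, was called lower at -4.11 but was at 1130 in N7 and 56.6 to 287 in the other lines. SLC39A13, a zinc transporter, was lower by limma as well (-4.27), and TMEM38B, an ion channel of the endoplasmic reticulum, was higher (2.28, SE 0.27, limma adjusted p = 0.00122). In the secretion list, 1 of 5 genes was called lower, the coat protein gene SEC31A at -1.68.

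Of 6 further genes for propeptide cleavage and cross-linking, 3 were called lower and 0 higher by limma. These 3 were also those at an unadjusted p under 0.05, a count near the share over all genes. They were ADAMTS2, the N-propeptide protease (-7.13), PCOLCE2 (-6.37) and LOXL4 (-2.69). PCOLCE2 was at the floor in 5 lines and at 100.1 in N7, against 1398 and 1702 in SCs. Of 13 genes for proteins that bind to fibrils, 9 were called lower and 0 higher by limma, with 11 at an unadjusted p under 0.05. ASPN was at the floor in all 6 lines, with SC P5 at 22910 and SC P10 at 15315. It could only be called lower, and its call adds nothing to the count. LUM lay between the floor and 99.0 in eSLCs against 38281 and 28643 (-10.48, SE 0.69), and TGFBI was at the floor in all lines but N7 (67.9) against 12603 and 14638. LUM and ASPN encode small leucine-rich proteoglycans, which coat collagen fibrils.

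Among basement membrane partners, 4 of 8 genes tested were called lower and 0 higher by limma, with 5 at an unadjusted p under 0.05. The last count was near the share over all genes tested. NID1, which links laminin to type IV collagen, was at 1988 in N7 and between the floor and 56.9 in the other lines, against 3712 and 5169 in SCs (-6.26, SE 1.75, limma adjusted p = 0.0295). SPARC, a collagen-binding protein that the list of fibril-binding proteins also counts, was at 19470 in N7 and 2258 to 6058 in the other lines, against 140424 and 176894 in SCs (-4.98, SE 0.61). Both had N7 as their highest line, as COL4A1 did. Receptors and uptake were split, with 3 of 6 genes called lower and 3 higher. The receptor tyrosine kinase DDR2, a receptor for fibrillar collagen, lay between the floor and 24.8 in eSLCs against 1032 and 1248 in SCs (-6.02), and the uptake receptor gene MRC2 (-5.63) and the integrin gene ITGB1 (-2.16) were lower as well. DDR1, the related kinase of epithelia, lay between 8370 and 18435 in eSLCs against 3350 and 3843 in SCs (1.60, SE 0.33), and the adhesion receptor gene ADGRG1 (2.63) and the integrin gene ITGA10 (1.25) were also higher in eSLCs.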

How the data were processed

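RNA of 6 eSLC lines and of SCs at 2 passages was measured on 8 one-colour Agilent bovine arrays. The authors scanned the arrays, quantified them with Feature Extraction and normalized them with GeneSpring GX. The deposited scanner files hold the linear intensity of each spot before any normalization between arrays, and the deposited series matrix holds intensities after the authors' normalization, whose details are not given in the sources used here (medians of 119 to 501 per array; scaled here to its 75th percentile). Probes carry accessions, and 26743 of 43653 probes (61.3%) matched a RefSeq gene table. Its assembly is not that of the array's design, so that no coordinates are given.

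After control spots and 0 to 5 outlier spots per array were left out, the background-subtracted signals were averaged per probe and scaled to a 75th percentile of 1000. This percentile was 1192 to 4092 scanner units and exceeded the weakest signal well above background by 75.3 to 136 times. No spot was saturated, and 12 named probes with an outlier spot were left out. Values were floored at 13.3 before log2. The probe with the highest mean stood for its gene (8159 genes had more than 1). A gene entered the limma test (version 3.58.1, R version 4.3.3, a mean per condition, 8 arrays in 1 fit) if all arrays of any condition were well above background. For eSLCs against SCs, a simulation on 10957 genes with 200 changed 4-fold recovered 63.5% of the changes, with 0 errors of sign and 5 unchanged genes called. In the data far more genes were called (1722 lower and 2155 higher), so that these rates do not carry over to the test on the data. The number of arrays limits the precision.

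In 6 of 8 files the scanner software's processed signal did not follow the background-subtracted one (Spearman correlation 0.161 to 0.217 over all probes, against 0.971 in N2 and 0.973 in I2), and it serves as an alternative only. The files hold no mean signal, so that normexp was run on the median signal, an alternative chosen after seeing the data, as was giving each probe by itself.

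The members, the role lists and the marker lists were chosen with earlier results of these data known. Every member is named. Array values are given for tested fibrillar and type IV chains, processing genes and other called chains, and genes of other lists are named only if called and among the 3 largest differences of their list in each direction. Alternatives were median scaling, quantile normalization, normexp, the processed signal, the series matrix, other filters and floors, the mean of a gene's probes, SC arrays as 1 sample, all eSLC arrays as 1 group, the slide as a block or alone, the methods' t-test, and leaving out each array. Plots were made in Python version 3.11.15 with matplotlib version 3.10.9.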

Additional observations from a re-analysis of the deposited data

Results flagged for a closer look

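N7 stood apart from the other 5 eSLC lines in 2 of the 28 genes whose lines could be compared by Dixon's test (critical value 0.625 for 6 samples). COL18A1 was at 35285 in N7 and at 289 to 674 in the other lines, a gap of 0.82 of the whole range on the log2 scale. COL12A1 was at 624.7 in N7 and at 96.6 to 194 in the other lines, a gap of 0.63 of the range on that scale. Chance alone marks about 1 in 20 such groups. Groups of 2 arrays were not tested in this way.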

How the results depend on the processing

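Under median scaling, quantile normalization, a floor lowered to 0.25 of its value and the slide as a block, the same 11 chains and 8 processing genes were called lower. The methods' t-test called 11 and 8 lower at their threshold and 9 and 8 after Benjamini-Hochberg adjustment. COL1A2, COL11A1 and PCOLCE kept direction and call under all 24 other settings. Chains called lower numbered 2 with the processed signal, 6 on slide 1 alone and 7 on slide 2 alone, and processing genes 4, 3 and 3, with fewer arrays in each slide and the processed signal out of step. With the processed signal, 5, 4 and 3 genes were called lower in IVP-, NT- and PA-eSLCs. It also turned the sign of COL1A1 (1.79), COL3A1 (2.19), COL2A1 (0.22), COL4A1 (2.67), COL8A1 (0.62), COL8A2 (4.30), COL27A1 (0.43), SERPINH1 (7.16), P4HA1 (0.67) and COL5A3 (-3.65). Chains called higher numbered 0 with normexp, with genes well above background on all 8 arrays, with no filter, with the mean of a gene's probes, with SC arrays as 1 sample and within either slide, and 2 with the series matrix and with a 2-fold difference and no test, which also gave 1 processing gene called higher. The series matrix called 2, 1 and 1 genes between NT and IVP, PA and IVP, and PA and NT, and an unadjusted p under 0.05 with a 2-fold difference 1 (NT and IVP) and 6 (PA and NT). The series matrix turned the sign of COL10A1 (-0.34), COL8A2 (4.75) and P4HA1 (0.13), the mean of probes that of P4HA1 (0.23), and slide 2 alone that of P4HA1 (0.10) and COL17A1 (0.0027). COL5A3 turned to -0.0254 after quantile normalization, -0.0233 with normexp and -0.10 on slide 1 alone. The cause was not tested for any of these.

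Leaving out 1 array at a time gave 9 to 11 chains and 7 to 8 processing genes called lower, 0 to 2 chains (2 without N2) and 0 to 1 processing genes (1 without I9) called higher, and 15 to 19, 12 to 19 and 14 to 18 genes lower in IVP-, NT- and PA-eSLCs. It gave 0 to 1 genes between NT and IVP and 0 to 1 between PA and NT (COL18A1, without N2, which leaves N7 alone for NT). COL5A3 ranged from -0.0182 to 0.18 and P4HA1 from -0.23 to 0.19. No paired analysis was possible because every label carries the same replicate number, so that none pairs the samples. Signals close to the floor, as in COL2A1, COL8A2, COL11A2 and COL13A1, limit what these arrays can show.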
